A study of Lupinus albus with 12 samples.

Results

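The sequences described here are the jasmonate synthesis and signalling genes of white lupin (Lupinus albus cultivar Ultra). This legume answers low phosphorus with dense tufts of rootlets known as proteoid roots. A sequence was taken when its deposited MapMan class (a plant functional catalogue) was hormone metabolism, jasmonate, or when its description named a jasmonate-ZIM domain protein. This gave 219 of the 125535 sequences in the table, 165 by class and 54 by description. Of these, 202 reached 1 RPKM (an abundance corrected for sequence length and sequencing depth) or more in at least 3 of the 12 libraries, as did 87081 sequences in all. Names come from the closest Arabidopsis protein in the deposited annotation, and 194 of the 202 share their description with another of them. Such copies, alleles or isoforms may share reads, so the split of a level between copies is uncertain. Copies that move together are counted more than once, so counts and shares of sequences below are not counts of independent genes.

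Jasmonates are plant hormones made from membrane fatty acids and are best known for responses to wounding, feeding insects and flowering. In the plastid a lipoxygenase oxidises linolenic acid, allene oxide synthase (AOS) and allene oxide cyclase (AOC) turn the product into oxophytodienoic acid (OPDA), and OPDA reductase (OPR) and beta-oxidation in the peroxisome complete jasmonic acid. The conjugate of jasmonic acid with isoleucine, made by JAR1, joins the F-box receptor COI1 to JAZ proteins, which are then degraded and release transcription factors such as MYC2. JAZ genes are themselves jasmonate-induced targets of MYC2 in Arabidopsis.

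Root and leaf samples of cultivar Ultra plants were taken 14 days after emergence, at either phosphorus supply, with 3 biological replicates in each of the 4 groups (12 libraries). The solution held 1 mM calcium phosphate for sufficient supply, and 1 mM calcium sulfate replaced it for deficient supply; a treatment label speaks of soil instead. Samples of deficient roots carry the tissue label proteoid roots, so root type and phosphorus supply cannot be told apart in the root comparison. The labels give no time of day for the harvests.

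By role, the 202 sequences were 82 of 92 lipoxygenases found, 12 of 12 AOS, 11 of 13 AOC, 35 of 35 OPR, 4 of 4 jasmonic acid carboxyl methyltransferases (JMT), 54 of 54 JAZ repressors and 4 of 9 sequences named ANAC028. ANAC028 is a NAC transcription factor that the catalogue places in the jasmonate class. The 11 sequences just outside the filter had 2 libraries at 1 RPKM or more and highest values of 1.2 to 2.5 RPKM. The 6 just inside had 3 such libraries and highest values of 1.1 to 4.3 RPKM.

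The deposited values carry no read counts, so the depth of the libraries is unknown. Summed RPKM ran from 802814.9 to 947804.4 in 11 libraries and was 1178058.3 in deficient leaf replicate 3. In that library the 20 largest sequences held 70.91% of the sum, against at most 17.98% in the others, the median over tested sequences was 0.9 RPKM there and 2.1 to 2.7 RPKM elsewhere, and 32 of the 202 sequences were listed at 0 against 4 to 20. The tissue labels held against markers: 50 light-harvesting protein sequences summed to 51.6 to 90.5 RPKM in the root libraries and 14847.9 to 62659.0 RPKM in the leaf libraries, with 25 of the 50 at 0 in every sufficient root library. A set of 71 root marker sequences summed to 232.9 to 324.9 RPKM in roots and 62.1 to 166.2 RPKM in leaves. In bulk tissue, fewer cells of a type and less RNA per cell cannot be told apart.

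Most jasmonate sequences were more abundant in roots than in leaves, and a few, led by the LOX2 lipoxygenases, belonged to leaves. Summed over the 202 sequences, the sufficient root libraries reached 7784.1, 11656.8 and 11747.0 RPKM and the sufficient leaf libraries 1858.7, 2101.1 and 2321.5 RPKM. With deficient phosphorus the sums were 5393.8, 10132.9 and 9519.0 RPKM in roots and 1688.0, 2109.0 and 862.8 RPKM in leaves, in the order of replicates 1 to 3. No root library came within the leaf range. In sufficient roots LOX1 held 4247.0 to 4677.5 RPKM of these sums, OPR2 356.2 to 2016.5 RPKM and OPR1 180.3 to 718.4 RPKM. As described below, these names do not by themselves place a sequence in jasmonate synthesis. By limma with adjusted p below 0.05 over all tested sequences, 147 of the 202 (72.8%) were higher in sufficient roots, against 24.1% of all sequences tested, and 29 (14.4%) were higher in sufficient leaves, against 17.8%. With deficient phosphorus 151 (74.8%) were higher in roots, against 29% of all, and 27 (13.4%) were higher in leaves, against 13.2%. The median root minus leaf difference with sufficient phosphorus was 2.69 on the log2(RPKM + 0.5) scale over the 202 sequences and 0.187 over all. With deficient phosphorus these medians were 2.41 and 0.421. Every log2 difference below is on this scale, which understates the change of sequences near 0.

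**Figure D1:**
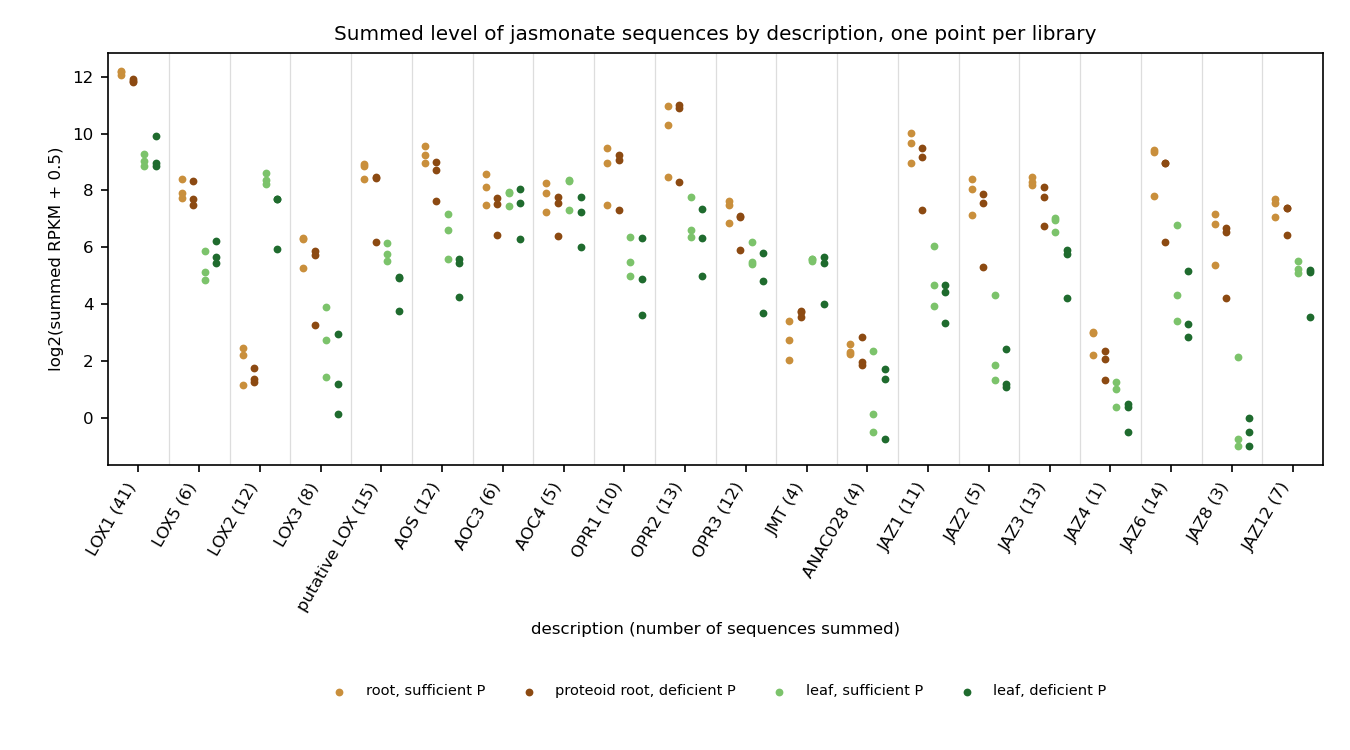
Summed level of the sequences of each name (columns) in each of the 12 libraries, as log2(summed RPKM + 0.5) on the vertical axis, with the 4 groups in colour. LOX1 holds the highest root levels, LOX2 is at 1.7 to 5.0 RPKM in sufficient roots and 299.5 to 393.7 RPKM in sufficient leaves, and JAZ1, JAZ2, JAZ6 and JAZ8 lie far lower in leaves than in roots.

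A sufficient mean of 1 RPKM or more was reached by 125 sequences in both tissues, by 52 in roots alone, by 21 in leaves alone and by 4 in neither. LOX2 gave 11 of the 21 leaf sequences and LOX1 gave 12 of the 52 root sequences. The plot of root against leaf means shows these classes on either side of the diagonal.

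**Figure D2:**
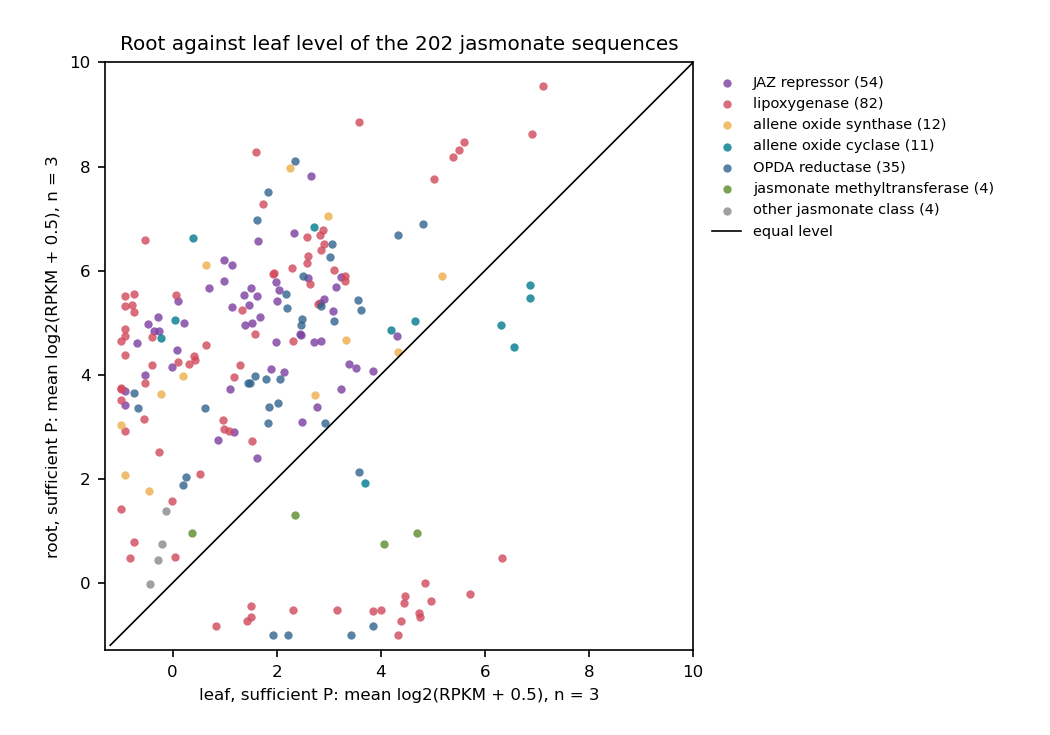
Mean log2(RPKM + 0.5) of each of the 202 sequences in 3 sufficient leaf libraries and 3 sufficient root libraries, coloured by role, with the diagonal of equal levels. All 54 JAZ and all 12 AOS sequences lie on the root side, and the points deep on the leaf side include the 12 LOX2 sequences.

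Lipoxygenases, the class of enzyme that opens the pathway, were the most abundant role in both tissues, with LOX1 as the largest part. Their 82 sequences summed to 4964.1 to 5493.4 RPKM in sufficient roots and 885.8 to 1030.4 RPKM in sufficient leaves, and 63 were higher in roots and 18 in leaves. The names divided sharply. LOX1 sequences, whose Arabidopsis namesake oxidises the fatty acid at a carbon that does not lead to jasmonate, were higher in roots in 39 of 41 cases and in leaves in 2. LOX1 summed to 4247.0 to 4677.5 RPKM in sufficient roots and 460.2 to 619.0 RPKM in sufficient leaves. LOX2, the main plastid lipoxygenase of wounded Arabidopsis leaves, was higher in leaves in 12 of 12, with a median root minus leaf difference of -4.98. LOX3, another jasmonate-forming lipoxygenase of Arabidopsis, was higher in roots in 8 of 8. In sufficient roots LOX2 and LOX3 summed to at most 5.0 and 80.3 RPKM. Of 6 LOX5 sequences, 3 were higher in roots and 2 in leaves, and of 15 putative lipoxygenases 13 were higher in roots and 2 in leaves.

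The most abundant of all 202 sequences was LOX1 LAGI01_7780, at 858.9, 720.4 and 686.9 RPKM in sufficient roots and 164.4, 141.1 and 113.5 RPKM in sufficient leaves. Root and leaf libraries did not overlap, and the difference was 2.44 (SE 0.38, limma adjusted p = 6.21e-05). LOX1 LAGI01_72938 stood at 360.3, 429.7 and 401.6 RPKM in roots and 68.0, 138.6 and 177.0 RPKM in leaves, a smaller difference of 1.74 (SE 0.48, limma adjusted p = 0.00759). Both were therefore substantial in leaves as well. LOX1 LAGI01_20639 was close to a root sequence, with 110.0, 104.2 and 75.7 RPKM in roots and 0.2, 0.3 and 0.1 RPKM in leaves. Its difference of 7.11 (SE 0.36, limma adjusted p = 4.47e-10) was the largest of the 202. LOX1 LAGI01_24578 followed with 361.0, 335.7 and 243.6 RPKM in roots and 4.1, 2.4 and 1.6 RPKM in leaves (6.67, SE 0.41, limma adjusted p = 2.53e-09).

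The leaf lipoxygenases were nearly absent from roots. LOX2 LAGI01_7604 read 0.2, 1.5 and 1.4 RPKM in sufficient roots and 52.2, 103.7 and 96.1 RPKM in sufficient leaves, a difference of -5.87 (SE 0.48, limma adjusted p = 5.68e-08). LOX2 LAGI01_1960 read 0.4, 0.4 and 0.3 RPKM in roots and 52.7, 55.2 and 49.1 RPKM in leaves (-5.93, SE 0.44, limma adjusted p = 1.93e-08). The sufficient leaf replicates agreed closely for LAGI01_1960, whereas replicate 1 of LAGI01_7604 was the lowest by a wide margin. The putative lipoxygenase LAGI01_53456 had the same tissue pattern, with 0.1, 0.4 and 0.4 RPKM in roots and 19.3, 49.2 and 30.2 RPKM in leaves (-5.31, SE 0.40, limma adjusted p = 1.88e-08). Other putative lipoxygenases were root sequences: LAGI01_51755 read 5.6, 14.5 and 15.6 RPKM in sufficient roots and was listed at 0 in all 6 leaf libraries, and LAGI01_77247 read 34.8, 43.0 and 41.9 RPKM in roots and 0.3, 0.0 and 0.0 RPKM in leaves.

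AOS commits the lipoxygenase product to jasmonate. Its 12 sequences summed to 501.1, 757.5 and 605.0 RPKM in sufficient roots against 47.0, 96.3 and 142.9 RPKM in sufficient leaves, and 9 were higher in roots and none in leaves. AOS LAGI01_27462, the most abundant, read 199.6, 312.9 and 254.6 RPKM in roots and 2.9, 2.3 and 11 RPKM in leaves (5.72, SE 0.75, limma adjusted p = 9.75e-06). AOS LAGI01_10693 read 102.5, 167.9 and 134.3 RPKM in roots and 5.5, 6.4 and 11.4 RPKM in leaves, and AOS LAGI01_76280 read 48.2, 90.8 and 72.4 RPKM and 0.6, 0.4 and 3.4 RPKM. The tissues overlapped for AOS LAGI01_13336, with 54.4, 69.0 and 55.1 RPKM in roots and 15.0, 44.9 and 65.5 RPKM in leaves, and its difference of 0.73 was not called (SE 0.57, limma adjusted p = 0.331). It was the leading AOS sequence of leaves.

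AOC fixes the stereochemistry of OPDA, and as a role its summed level was similar in both tissues while its sequences divided. The 11 sequences summed to 331.3 to 688.8 RPKM in sufficient roots and 395.1 to 564.5 RPKM in sufficient leaves, 4 being higher in roots and 4 in leaves. AOC3 LAGI01_49670 was a root sequence, with 52.0, 163.9 and 110.1 RPKM in roots and 0.7, 0.6 and 1.2 RPKM in leaves (6.23, SE 0.60, limma adjusted p = 3.49e-07). AOC3 LAGI01_83805 read 28.3, 37.3 and 33.3 RPKM and 0.5, 0.9 and 0.3 RPKM (5.0, SE 0.48, limma adjusted p = 3.17e-07). AOC4 LAGI01_32861 was a leaf sequence, with 17.5, 29.4 and 22.3 RPKM in roots and 56.9, 113.8 and 128.2 RPKM in leaves (-2.04, SE 0.49, limma adjusted p = 0.00273). Another AOC3, LAGI01_83752, also favoured leaves, with 41.4, 49.3 and 40.9 RPKM in roots and 120.6, 140.9 and 93.4 RPKM in leaves (-1.41, SE 0.45, limma adjusted p = 0.0178). Sequences of the same name therefore lay on opposite sides. AOC4 LAGI01_69002 read 3.2, 3.6 and 3.1 RPKM in roots and 9.3, 17.0 and 12.1 RPKM in leaves (-1.77, SE 0.42, limma adjusted p = 0.00236). AOC4 LAGI01_34633, the most abundant AOC4, read 36.2, 75.9 and 52.3 RPKM in roots and 72.4, 147.0 and 147.3 RPKM in leaves and was not called (-1.14, SE 0.50, limma adjusted p = 0.0771), though it was with the replicate number as a block within each tissue (limma adjusted p = 0.0357).

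The OPR sequences carry 3 names. OPR3 is the Arabidopsis enzyme that reduces the natural OPDA isomer, while OPR1 and OPR2 act poorly on it, so the OPR1 and OPR2 names do not by themselves place a sequence in jasmonate synthesis. OPR2 was the most abundant, at 356.2, 1248.6 and 2016.5 RPKM summed over 13 sequences in sufficient roots in order of size, with OPR1 at 180.3, 498.8 and 718.4 RPKM over 10 and OPR3 at 114.7, 177.5 and 197.1 RPKM over 12. Of the 35, 24 were higher in sufficient roots and 5 in leaves. OPR2 LAGI01_34533 read 149.4, 311.6 and 438.6 RPKM in roots and 3.5, 3.8 and 7.1 RPKM in leaves (5.75, SE 0.52, limma adjusted p = 1.63e-07), and OPR1 LAGI01_20612 read 103.4, 205.2 and 282.1 RPKM and 2.2, 2.4 and 5.3 RPKM (5.67, SE 0.49, limma adjusted p = 1.08e-07). OPR2 LAGI01_38859 varied more between replicates, with 38.5, 167.5 and 255.4 RPKM in roots and 25.2, 16.7 and 48.8 RPKM in leaves, and was not called (2.09, SE 0.84, limma adjusted p = 0.0565), though it was with that block (limma adjusted p = 0.00649). OPR2 LAGI01_37949 was a leaf copy, at 0.0, 0.1 and 0.1 RPKM in roots and 15.9, 13.1 and 12.9 RPKM in leaves (-4.67, SE 0.42, limma adjusted p = 1.45e-07). OPR2 LAGI01_36749, at 11.3, 9.4 and 10.1 RPKM in leaves, was listed at 0 in all 3 sufficient root libraries. The leaf call among OPR3 went to LAGI01_33062, with 3.7, 4.3 and 3.7 RPKM in roots and 5.0, 17.1 and 17.2 RPKM in leaves (-1.45, SE 0.47, limma adjusted p = 0.0203), and that call was lost without sufficient root replicate 3, sufficient leaf replicate 2 or sufficient leaf replicate 3.

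JMT, which methylates jasmonic acid to its volatile ester, was the role with leaf sequences in front. JMT LAGI01_38177 read 0.6, 1.3 and 3.2 RPKM in sufficient roots and 24.9, 24.3 and 26.7 RPKM in sufficient leaves (-3.73, SE 0.58, limma adjusted p = 6.33e-05). JMT LAGI01_19589 read 0.5, 0.9 and 2.9 RPKM and 15.3, 16.4 and 17.0 RPKM (-3.31, SE 0.57, limma adjusted p = 0.000157). JMT LAGI01_45064 stayed low in both tissues, at 0.8, 1.7 and 2.1 RPKM in roots and 0.9, 0.8 and 0.7 RPKM in leaves. The 4 ANAC028 sequences summed to at most 5.5 RPKM in any sufficient root library and 4.6 RPKM in any sufficient leaf library, and 1 of them, LAGI01_59294, was higher in roots (1.52, SE 0.46, limma adjusted p = 0.0127). The other 3, LAGI01_48640, LAGI01_63702 and LAGI01_113109, reached at most 1.8 RPKM in any library.

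The JAZ repressors were root-rich throughout. All 54 had a positive root minus leaf difference at both supplies, 46 were called higher in roots with sufficient and 52 with deficient phosphorus, and none was called higher in leaves. They summed to 1328.3, 2762.2 and 2351.6 RPKM in sufficient roots and 158.3, 206.4 and 373.3 RPKM in sufficient leaves. JAZ1 LAGI01_48376, the most abundant, read 166.9, 310.9 and 219.4 RPKM in roots and 5.2, 4.8 and 8.0 RPKM in leaves (5.15, SE 0.55, limma adjusted p = 9.53e-07). JAZ1 LAGI01_23762 read 76.9, 146.6 and 104.7 RPKM in roots and 3.5, 4.2 and 6.3 RPKM in leaves (4.40, SE 0.53, limma adjusted p = 3.52e-06). Both JAZ1 sequences were thus at single-digit levels in leaves. JAZ8 LAGI01_61629 read 13.0, 51.2 and 43.4 RPKM in roots and 0.0, 0.0 and 1.0 RPKM in leaves (5.44, SE 0.70, limma adjusted p = 7.98e-06). JAZ8 of Arabidopsis escapes the jasmonate-triggered degradation of other JAZ proteins. In the most abundant JAZ6, LAGI01_15633, the leaf replicates differed among themselves: 22.6, 74.3 and 70.6 RPKM in roots stood against 1.3, 2.5 and 12.6 RPKM in leaves (3.59, SE 0.82, limma adjusted p = 0.00194). JAZ1, JAZ2, JAZ4, JAZ6, JAZ8 and JAZ12 were called higher in roots in 41 of 41 sequences, and JAZ3 in 5 of 13 with sufficient and 11 of 13 with deficient phosphorus.

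JAZ3 held 2 kinds of sequence, told apart after their values were seen and so not tested as sets. In 4 of them, LAGI01_33704, LAGI01_24430, LAGI01_45419 and LAGI01_19869, the root minus leaf difference was 2.54 to 2.65 with sufficient phosphorus. In the other 9 it was 0.23 to 1.72. JAZ3 LAGI01_33704 read 52.4, 62.6 and 61.5 RPKM in sufficient roots and 14.2, 7.5 and 6.6 RPKM in sufficient leaves. JAZ3 LAGI01_7083 read 26.1, 30.2 and 23.0 RPKM in roots and 11.6, 23.3 and 26.8 RPKM in leaves, so that the tissues overlapped (0.43, SE 0.48, limma adjusted p = 0.51).

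In roots, no jasmonate sequence passed the test for a response to phosphorus. Among all tested sequences 0.279% were called by limma, 0.245% higher and 0.0345% lower with deficiency. At an unadjusted p below 0.05, 2 of the 202 were higher (2.08% of all tested) and 29 were lower (2.23% of all). Estimates leaned to lower values: 170 of the 202 were below 0 and 29 above, where 47.9% of all tested sequences were below 0, and the medians were -0.52 over the 202 and 0 over all. Every JAZ estimate was below 0, from -1.63 to -0.22, with a median of -0.86. Medians were -0.88 for AOS, -0.80 for AOC, -0.41 for lipoxygenases, -0.17 for OPR, 0.59 for JMT and -0.02 for ANAC028.

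The 3 root pairs of the same replicate number gave the same direction with unequal size. JAZ sequences had a median deficient minus sufficient difference of -1.56 in pair 1, -0.46 in pair 2 and -0.47 in pair 3, where all tested sequences had 0.12, -0.04 and 0. Of the 54 JAZ, 48 were lower in all 3 pairs, as were 11 of 12 AOS, 10 of 11 AOC, 58 of 82 lipoxygenases and 15 of 35 OPR. Over the 202 this was 142 (70.3%), against 16.3% of all tested. The 202 carry 32 distinct descriptions and were read in the same pairs, so they are not independent. Root replicate 1 stood low in both groups for many of these sequences: the JAZ sum was 1328.3 RPKM in sufficient replicate 1 against 2762.2 and 2351.6, and 480.6 RPKM in deficient replicate 1 against 1997.9 and 1747.6. Without deficient root replicate 1, 39 of the 54 JAZ estimates were below 0 and their median was -0.10, the AOS median was -0.48, the AOC median -0.33 and the median over the 202 was -0.18. With the barcoded libraries of replicates 2 and 3 alone, 53 were below 0 with a median of -0.42.

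Nodule markers were low in the same replicate 1 libraries and did not follow the JAZ sums in pairs 2 and 3. The 7 nodule marker sequences, nodulin or leghemoglobin by description, summed to 626.7 RPKM in sufficient root replicate 1 against 1445.4 and 1913.9, and to 152.0 RPKM in deficient replicate 1 against 1815.6 and 2003.6. Clock genes also differed: the mean log2 level of 35 morning sequences (LHY and CCA1) minus that of 44 evening sequences (TOC1, GI and APRR5) was -0.43, -2.23 and -2.39 in sufficient roots and 0.59, -0.92 and -1.15 in deficient roots. It was higher with deficiency in each pair. With this difference as a covariate 49 of the 54 JAZ estimates were below 0, with a median of -0.47. Beyond these values the part of nodules and of the clock in the root differences was not tested.

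The groups of 3 did not overlap in 28 of the 202 sequences in the lower direction (13.9%, against 4.39% of all tested) and in 3 in the higher direction (1.49%, against 6.79%). JAZ3 gave 9 of the 28, lipoxygenases 8, and AOC and AOS 4 each. JAZ3 LAGI01_63462 had the smallest p: 9.5, 8.8 and 4.0 RPKM with sufficient and 2.7, 1.6 and 1.6 RPKM with deficient phosphorus (-1.63, SE 0.43, limma adjusted p = 0.213). JAZ3 LAGI01_78099 read 5.8, 5.4 and 3.4 RPKM and 2.3, 1.0 and 1.4 RPKM (-1.39, SE 0.43, limma adjusted p = 0.437). These 2 were low in all roots, and their groups did not overlap. JAZ1 LAGI01_77267 read 21.2, 43.6 and 42.9 RPKM and 5.5, 23.6 and 17.9 RPKM, where deficient replicate 2 exceeded sufficient replicate 1 (-1.32, SE 0.49, limma adjusted p = 0.761).

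Among enzymes, the largest root estimate was that of the putative lipoxygenase LAGI01_77247. It read 34.8, 43.0 and 41.9 RPKM with sufficient and 0.8, 25.1 and 19.6 RPKM with deficient phosphorus (-2.20, SE 0.74, limma adjusted p = 0.589). All 3 deficient values lay below the sufficient ones, and replicate 1 carried most of the difference. The putative lipoxygenase LAGI01_51755 read 5.6, 14.5 and 15.6 RPKM and 0.5, 6.9 and 6.5 RPKM (-1.61, SE 0.59, limma adjusted p = 0.724, and 0.0501 with the replicate number as a block within each tissue). AOC3 LAGI01_49670 read 52.0, 163.9 and 110.1 RPKM and 12.5, 82.1 and 73.8 RPKM (-1.19, SE 0.60, limma adjusted p = 1). AOC3 LAGI01_84353 read 32.0, 37.8 and 23.8 RPKM and 20.6, 16.5 and 11 RPKM without overlap (-0.96, SE 0.49, limma adjusted p = 1). AOC4 LAGI01_34633 read 36.2, 75.9 and 52.3 RPKM and 21.1, 36.8 and 30.3 RPKM, a difference seen in each pair at similar size (-0.86, SE 0.50, limma adjusted p = 1). OPR3 LAGI01_68184 read 6.0, 13.4 and 11.3 RPKM and 2.8, 6.1 and 6.9 RPKM (-0.91, SE 0.43, limma adjusted p = 1). OPR3 LAGI01_69326 read 2.4, 4.3 and 4.5 RPKM and 1.3, 2.4 and 1.9 RPKM, so that each OPR3 pair was lower with deficiency (-0.82, SE 0.43, limma adjusted p = 1). Estimates near 0 stood beside these. LOX1 LAGI01_7780 read 858.9, 720.4 and 686.9 RPKM and 882.2, 689.5 and 714.5 RPKM, with an estimate of 0.01 (SE 0.38, limma adjusted p = 1). OPR2 LAGI01_34533 read 149.4, 311.6 and 438.6 RPKM and 142.4, 337.2 and 365.3 RPKM, and replicates of a group differed more than the groups did (-0.07, SE 0.52, limma adjusted p = 1).

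A single AOS copy went the other way. AOS LAGI01_32261 read 10, 7.7 and 5.8 RPKM in sufficient and 21.1, 15.5 and 10.8 RPKM in deficient roots, and was listed at 0 in all 6 leaf libraries. Its groups did not overlap, and every pair was higher with deficiency (0.95, SE 0.33, limma adjusted p = 0.613). The other 11 AOS sequences were lower in all 3 pairs, such as LAGI01_27462 with 199.6, 312.9 and 254.6 RPKM and 71.0, 213.5 and 176.7 RPKM (-0.85, SE 0.75, limma adjusted p = 1). LAGI01_32261 was not called in the fits planned for these comparisons. It was called with the replicate block within each tissue and rescaled libraries together (0.93, limma adjusted p = 0.0304) and with that block without deficient leaf replicate 3 (0.95, limma adjusted p = 0.0392), both chosen after its values were seen. JMT LAGI01_45064 was the other sequence higher at an unadjusted p below 0.05: 0.8, 1.7 and 2.1 RPKM with sufficient and 5.9, 3.2 and 2.1 RPKM with deficient phosphorus (1.02, SE 0.39, limma adjusted p = 0.795). Replicate 3 of both groups stood at the same level.

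**Figure D3:**
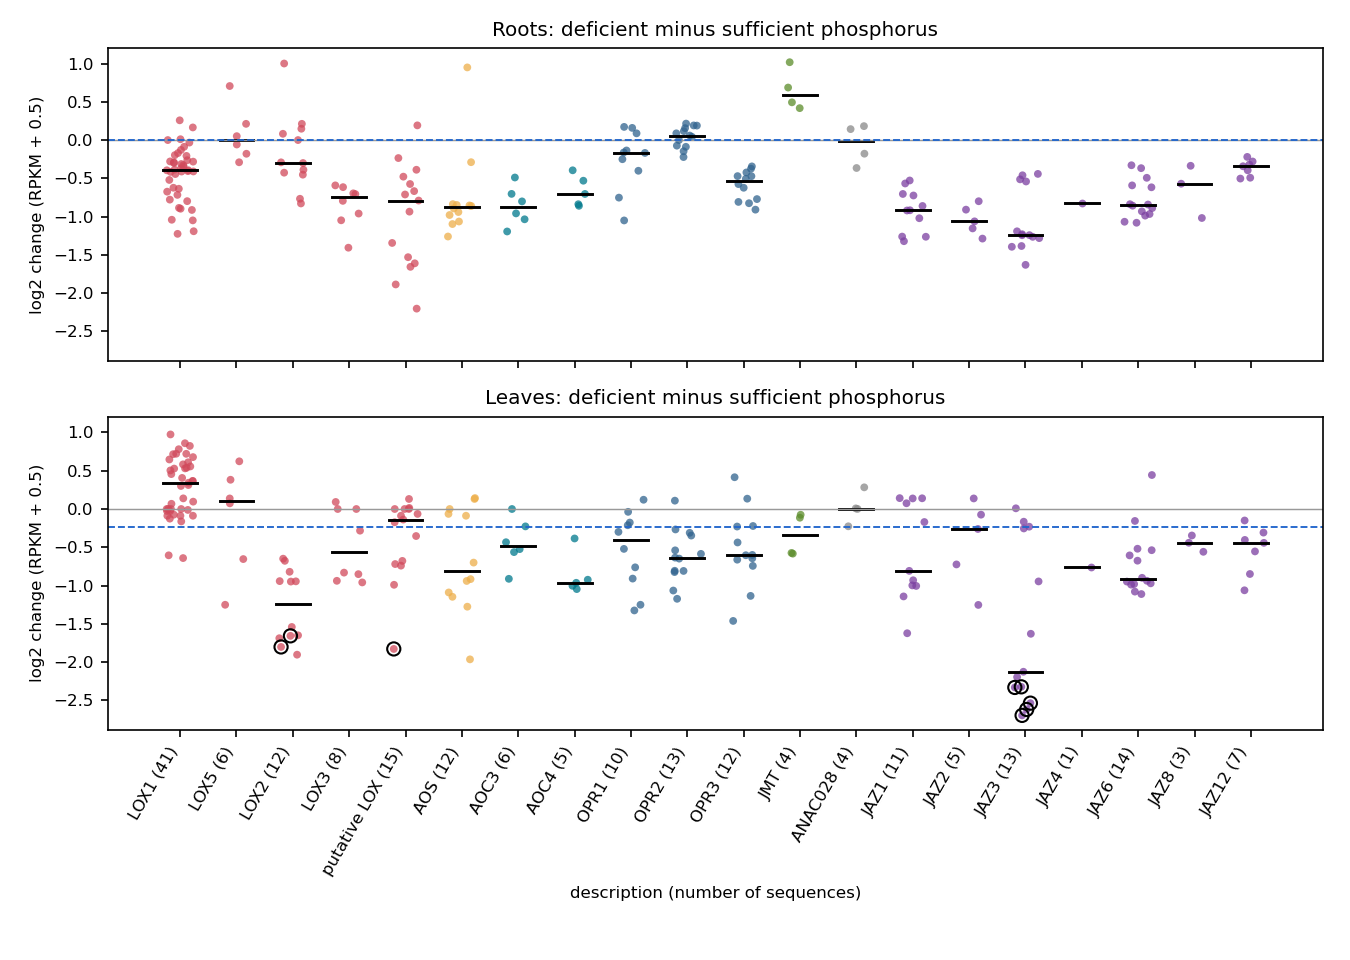
Deficient minus sufficient difference, in log2(RPKM + 0.5), of each of the 202 sequences by name, in roots and in leaves. Black bars are medians by name, the blue dashed line is the median of all 87081 tested sequences, and black rings mark the 8 leaf sequences called with the replicate block within each tissue: in roots all JAZ points lie below 0, and in leaves JAZ3 and LOX2 have the lowest medians, -2.13 and -1.24.

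In leaves the 7 lowest estimates, -2.70 to -2.13, belonged to JAZ3, followed by AOS LAGI01_13336 and by LOX2 and putative lipoxygenase sequences, and whether any was called depended on the fit. With the main fit no jasmonate sequence passed, against 0.0276% of all tested. At an unadjusted p below 0.05, 27 were lower (6.81% of all tested) and 1 was higher (0.95% of all). With the replicate number as a block within each tissue, 8 of the 202 (3.96%) were called lower, against 0.229% of all tested: JAZ3 LAGI01_7083, LAGI01_22302, LAGI01_43015, LAGI01_33259 and LAGI01_36647, LOX2 LAGI01_14501 and LAGI01_64003, and the putative lipoxygenase LAGI01_53456. Their limma adjusted p was 0.0579 to 0.152 without the block and 0.0338 to 0.0487 with it, at estimates from -2.70 to -1.66. With the barcoded replicates 2 and 3 alone, 41 of the 202 (20.3%) were lower, against 5.26% of all tested, and 2 LOX1 sequences were higher, against 0.726% of all. Without sufficient leaf replicate 1, 16 (7.92%) were lower, against 1.5% of all. Both of these fits keep deficient leaf replicate 3, whose values stood apart, and neither was run without that library. In the barcoded fit it is 1 of 2 deficient leaf libraries.

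JAZ3 LAGI01_7083 read 11.6, 23.3 and 26.8 RPKM in sufficient and 4.2, 3.6 and 1.0 RPKM in deficient leaves (-2.70, SE 0.48, limma adjusted p = 0.0579, and 0.039 with the block). JAZ3 LAGI01_22302 read 5.4, 11.3 and 11.5 RPKM and 2.0, 1.3 and 0.3 RPKM (-2.62, SE 0.47, limma adjusted p = 0.0579, and 0.0351 with the block). JAZ3 LAGI01_43015 read 9.0, 18.0 and 16.3 RPKM and 3.0, 3.1 and 0.7 RPKM. In these 3 the groups did not overlap, deficient replicate 3 was the lowest library, and replicates 1 and 2 were also below every sufficient library. Of the 13 JAZ3 sequences 12 had estimates below 0, and 9 were lower in all 3 pairs. Without deficient leaf replicate 3, 9 of the 13 were below 0 and the JAZ3 median went from -2.13 to -1.64. The 4 root-rich JAZ3 sequences had leaf estimates of -0.25 to 0.01 and the other 9 of -2.70 to -0.95. That split used the sufficient leaf libraries that also enter these estimates, so the split and the estimates are not independent. LAGI01_33704 read 14.2, 7.5 and 6.6 RPKM in sufficient and 12.4, 11.7 and 4.9 RPKM in deficient leaves (0.01, SE 0.48, limma adjusted p = 1).

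All 12 LOX2 estimates were below 0, from -1.90 to -0.65, 10 were lower in all 3 pairs and 9 had groups that did not overlap. Without deficient leaf replicate 3, 10 of the 12 were below 0 and the LOX2 median went from -1.24 to -0.71. LOX2 LAGI01_7604 read 52.2, 103.7 and 96.1 RPKM with sufficient and 22.4, 33.8 and 12.4 RPKM with deficient phosphorus (-1.90, SE 0.48, limma adjusted p = 0.228, and 0.0657 with the block). LOX2 LAGI01_14501 read 12.8, 20.0 and 14.9 RPKM and 5.3, 7.2 and 2.5 RPKM (-1.66, SE 0.36, limma adjusted p = 0.13, and 0.0441 with the block). The putative lipoxygenase LAGI01_53456 read 19.3, 49.2 and 30.2 RPKM and 7.9, 12.9 and 5.5 RPKM (-1.83, SE 0.40, limma adjusted p = 0.128, and 0.0348 with the block). In these 3 sequences every deficient library lay below every sufficient one. LOX2 LAGI01_1960 read 52.7, 55.2 and 49.1 RPKM and 46.0, 36.7 and 11.4 RPKM, with the largest step in deficient replicate 3 (-0.94, SE 0.44, limma adjusted p = 0.641). LOX2 LAGI01_95265 read 22.7, 19.5 and 16.8 RPKM and 23.8, 19.9 and 3.7 RPKM, level in pairs 1 and 2 (-0.65, SE 0.51, limma adjusted p = 0.786).

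**Figure D4:**
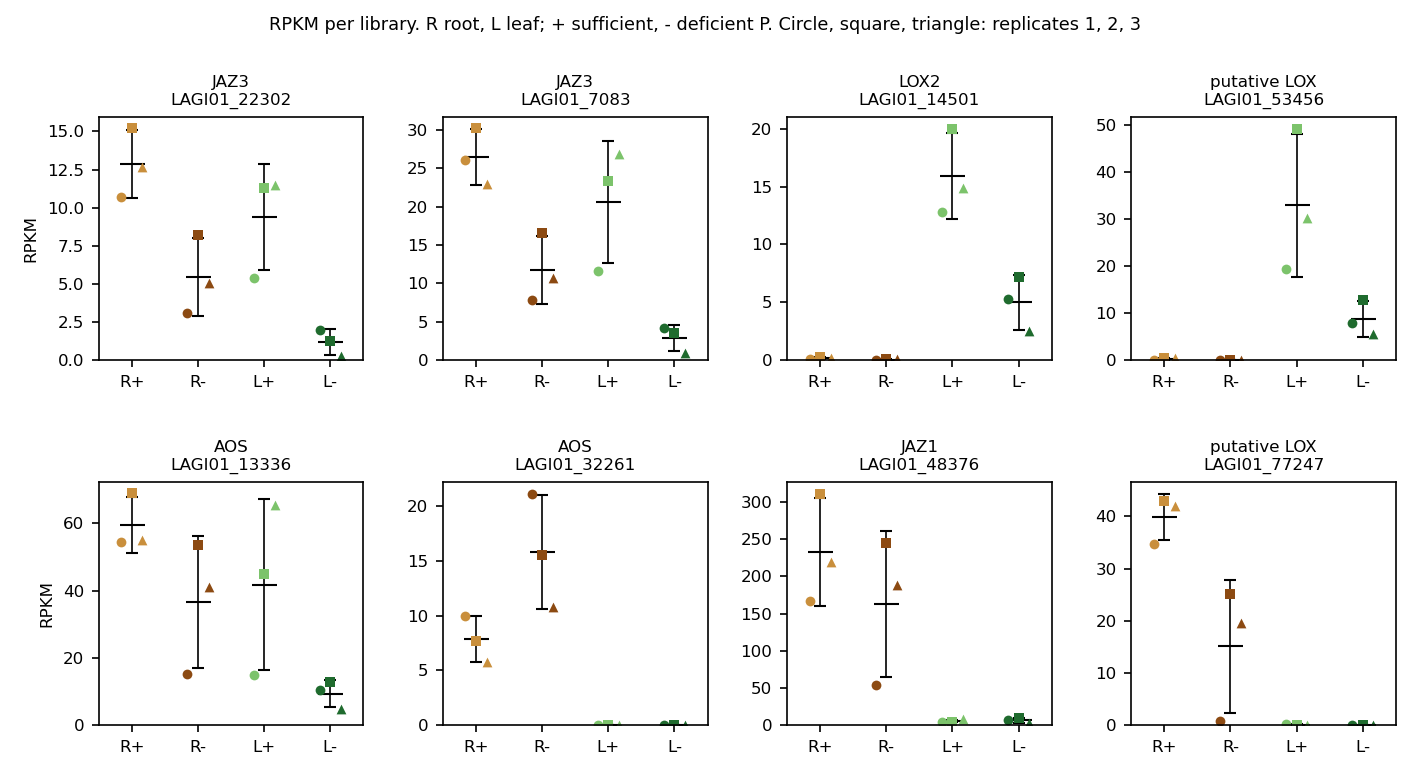
RPKM in each library for 8 sequences, with the mean ± SD of the 3 replicates of each group and the marker giving the replicate number. JAZ3 LAGI01_7083 and LAGI01_22302, LOX2 LAGI01_14501 and the putative lipoxygenase LAGI01_53456 are lower in all 3 deficient than in all 3 sufficient leaf libraries, and AOS LAGI01_32261 is higher in all 3 deficient than in all 3 sufficient root libraries.

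The libraries of leaves bear on these values in 2 ways. Deficient replicate 3, the library that stood apart, was lower than sufficient replicate 3 for most sequences: the pair medians over all tested were 0, 0.11 and -0.86, and over the 202 they were 0, 0 and -1.33. The leaf median over all tested was -0.236, and -0.031 after median-of-ratios scaling of the libraries. Over the 202 it was -0.39, and -0.21 after scaling. Without deficient replicate 3 these medians were 0.062 over all tested and -0.048 over the 202. Without deficient replicate 3 the 8 sequences had estimates of -2.18 to -1.27 and none was called (limma adjusted p 0.422 to 0.644), nor was any with the replicate block within each tissue and without that library (limma adjusted p 0.211 to 0.36). In leaves, neither fit called any of the 87081 tested sequences. In leaves the clock difference read 1.43, -2.28 and -2.23 with sufficient phosphorus and 3.02, 1.93 and 1.42 with deficient phosphorus, so pair 1 differed least and pairs 2 and 3 by over 3 log2 units. With it as a covariate the 8 estimates were -2.24 to -1.08 and none was called (limma adjusted p = 0.619). No other tested sequence was called in leaves with this covariate. All 13 JAZ3 and all 12 LOX2 estimates were below 0 in that fit, while over the 54 JAZ the median went from -0.74 to 0.33.

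Leaf pairs differed for JAZ sequences other than JAZ3 as well. The JAZ1 median was 0.55 in pair 1, -0.65 in pair 2 and -1.89 in pair 3, and that of JAZ6 was 1.27, -0.82 and -3.04, whereas the single JAZ4 sequence was lower in each pair (-0.88, -0.52 and -0.89). JAZ1 LAGI01_48376 read 5.2, 4.8 and 8.0 RPKM with sufficient and 6.9, 9.9 and 3.4 RPKM with deficient phosphorus (0.07, SE 0.55, limma adjusted p = 1). JAZ6 LAGI01_15633 read 1.3, 2.5 and 12.6 RPKM and 3.6, 1.0 and 1.0 RPKM (-0.98, SE 0.82, limma adjusted p = 0.798). Sufficient replicate 3 was the high library here, and pair 1 went the other way.

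AOS LAGI01_13336, the leading AOS of leaves, read 15.0, 44.9 and 65.5 RPKM with sufficient and 10.4, 12.8 and 4.9 RPKM with deficient phosphorus (-1.96, SE 0.57, limma adjusted p = 0.318). Its groups did not overlap, and sufficient replicate 1 was the sufficient library nearest the deficient ones. Without that library it was called (-2.57, limma adjusted p = 0.0259), and with the clock covariate its estimate was -0.74 (limma adjusted p = 0.668). AOS LAGI01_40124 read 6.2, 11.6 and 11.9 RPKM and 4.1, 5.2 and 2.2 RPKM (-1.28, SE 0.45, limma adjusted p = 0.449). AOC4 LAGI01_32861 read 56.9, 113.8 and 128.2 RPKM and 57.8, 78.7 and 22.2 RPKM, level in pair 1 (-1.0, SE 0.49, limma adjusted p = 0.655). OPR3 LAGI01_33062 read 5.0, 17.1 and 17.2 RPKM and 5.1, 5.6 and 1.9 RPKM, again level in pair 1 (-1.46, SE 0.47, limma adjusted p = 0.385). OPR3 LAGI01_36620 read 4.4, 8.8 and 9.1 RPKM and 5.1, 3.6 and 1.3 RPKM (-1.14, SE 0.48, limma adjusted p = 0.583). JMT LAGI01_38177 read 24.9, 24.3 and 26.7 RPKM and 21.8, 26.6 and 8.1 RPKM, with deficient replicate 3 alone apart (-0.57, SE 0.58, limma adjusted p = 0.839).

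LOX1 leaf estimates leaned upward, with 27 of 41 above 0 and a median of 0.34. Of 6 LOX5 estimates 4 were above 0, with a median of 0.11 and a range from -1.25 to 0.62. Of 4 ANAC028 estimates 3 were above 0, but their median was 0 and their sum at most 4.6 RPKM in any leaf library. For LOX1, pair 1 had a median of -0.42, pair 2 of 0.92 and pair 3 of 0.41, so the pairs did not share a direction. LOX1 LAGI01_72367 was the sequence with groups that did not overlap in the higher direction, at 1.0, 0.9 and 0.1 RPKM with sufficient and 1.2, 2.1 and 1.2 RPKM with deficient phosphorus (0.86, SE 0.39, limma adjusted p = 0.628). Leaf groups did not overlap in the lower direction in 24 of the 202 (11.9%, against 4.45% of all tested) and in the higher direction in this 1 (0.495%, against 0.722%). All 3 pairs were lower in 40 (19.8%), against 15.3% of all tested.

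The difference between the root and leaf responses was called for none of the 202, against 0.0597% of all tested, and at an unadjusted p below 0.05 for 8 higher (4.67% of all) and 8 lower (1.25% of all), higher meaning a more positive response in roots. JAZ3 LAGI01_7083, with -1.19 in roots and -2.70 in leaves, had a difference of 1.5 (limma adjusted p = 0.833). The JAZ3 leaf and root responses were therefore not shown to differ. The 8 lower were 7 LOX1 sequences, LAGI01_72367 among them, and AOS LAGI01_30563. The 8 higher were 5 LOX2, 1 JAZ3, 1 LOX5 and 1 putative lipoxygenase sequence. The root and leaf responses do not share libraries.

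Other genes of the pathway were counted by description, 283 of 293 found being tested. None was called for the root response, the leaf response or their difference, also with the replicate block. Of all tested sequences 0.279%, 0.0276% and 0.0597% were called in these with the main fit. Between tissues, 143 of the 283 were higher in sufficient roots, against 24.1% of all tested, and 15 in sufficient leaves, against 17.8%. The lists were 17 COI1, 2 JAR1, 11 MYC2, 70 TOPLESS-type co-repressors, 88 beta-oxidation enzymes, 64 response outputs and 31 turnover enzymes. The wording took in 5 sequences named COS1 (COI1 suppressor, an enzyme of riboflavin synthesis) among the COI1 list and 2 with the description of the potassium channel KAT2 among beta-oxidation. The response outputs, chosen by wound and inhibitor terms, took in 6 sequences of the nitrate transport protein NRT3.1 (WR3) and 13 described as inter-alpha-trypsin inhibitor heavy chain. Root medians were -0.02, -0.11, -0.01, -0.19, -0.13, -0.09 and -0.49 in the order of the lists, and leaf medians -0.28, -0.33, -1.44, -0.06, -0.19, -0.23 and -0.41.

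COI1, the jasmonate receptor subunit, held the smallest leaf p of these genes. COI1 LAGI01_17981 read 3.5, 23.4 and 19.8 RPKM in sufficient and 2.3, 1.7 and 0.6 RPKM in deficient leaves (-2.72, SE 0.56, limma adjusted p = 0.104), while in roots it read 9.0, 8.2 and 8.5 RPKM and 10, 6.8 and 6.7 RPKM. COI1 LAGI01_65819 read 2.1, 12.9 and 15.1 RPKM and 1.4, 1.0 and 0.3 RPKM in leaves (-2.63, SE 0.55, limma adjusted p = 0.113). In both, leaf groups did not overlap and sufficient replicate 1 was close to the deficient libraries. The clock difference was 1.43 in that library and 3.02, 1.93 and 1.42 in deficient leaves. With the clock difference as a covariate neither COI1 sequence was called in leaves, where that fit called none of the 87081 tested sequences. Beyond these values the part of the clock in the COI1 values was not tested. MYC2 LAGI01_16031, the transcription factor that JAZ proteins repress, read 39.0, 35.4 and 58.1 RPKM in sufficient and 60.2, 5.9 and 2.6 RPKM in deficient leaves (-2.04, SE 0.74, limma adjusted p = 0.468). Deficient replicate 1 was the highest of the 6 leaf libraries and replicates 2 and 3 the lowest. In roots MYC2 LAGI01_16031 stayed at 38.7, 32.2 and 30.7 RPKM and 51.0, 37.9 and 34.6 RPKM (0.27, SE 0.74, limma adjusted p = 1).

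In roots the acyl-CoA oxidase ACX1, which starts the peroxisomal shortening of the jasmonate precursor, had 16 tested sequences. ACX1 LAGI01_68340, chosen after its values were seen, read 82.2, 142.7 and 116.7 RPKM with sufficient and 12.5, 102.3 and 80.5 RPKM with deficient phosphorus (-1.23, SE 0.66, limma adjusted p = 1). CYP94C1 LAGI01_6102, an oxidase that inactivates the isoleucine conjugate, read 28.6, 135.4 and 177.3 RPKM and 6.8, 100.2 and 102.1 RPKM (-1.07, SE 0.83, limma adjusted p = 1). Both were lowest in replicate 1 of each group, as the JAZ sums were. JAR1 LAGI01_16220 was level, at 11.9, 13.1 and 18.1 RPKM and 12.3, 18.5 and 18.7 RPKM in roots (0.19, SE 0.41, limma adjusted p = 1), and was higher in roots than in leaves (1.55, limma adjusted p = 0.00592).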

How the data were processed

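Poly-A RNA was sequenced for 76 cycles, per the labels' protocols. Replicate 1 libraries took 1 lane each without barcodes, while barcoded libraries of replicates 2 and 3 shared lanes in pairs. Bowtie is named in the submitters' processing notes with no version. The authors' deposited values are taken here to be RPKM because they carry 1 decimal, library sums differ (unlike CPM or TPM), and the smallest values vary with sequence; neither labels nor headers name the unit. How reads were counted, or shared between like sequences, is not given in the sources used here. The expression table's 2 empty unnamed columns were not used.

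Of 125535 sequences, 87081 passed the filter of 1 RPKM in 3 libraries. On log2(RPKM + 0.5), limma 3.58.1 (R 4.3.3) with trend was fitted to all 12 libraries as 4 groups. Benjamini-Hochberg adjustment ran over the 87081 sequences, with calls at 0.05. The fit was tested on simulated data. Python 3.11.15, pandas 2.3.3, numpy 2.4.6 and matplotlib 3.10.9 made summaries and plots. P-values rest on the spread between the 3 biological replicates within groups, pooled over all 4 groups and moderated over all tested sequences. With only the 2 leaf groups fitted, the 8 leaf sequences called with the replicate block within each tissue had limma adjusted p = 0.912. No tested sequence was called in leaves in that fit. Without counts no counting error can be given.

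Same-numbered libraries deviated together from their group means in roots (correlations 0.751, 0.399 and 0.644) and in leaves (0.237, 0.237 and 0.126). Numbers were therefore taken to pair libraries within a tissue, which comes from the data, not a stated design. Replicates 2 and 3 were poorly told apart. In roots, sufficient replicate 2 correlated at 0.441 with deficient replicate 3, and sufficient replicate 3 at 0.472 with deficient replicate 2. In leaves these correlations were 0.106 and -0.088. The pairing of replicates 2 and 3 is thus an assumption, on which the pair values and the replicate block rest. Alternatives covered pseudocounts, filters, scaling, replicate blocks, barcoded libraries, the trend, 2-group fits, a clock covariate, sums per description and leaving out each library.

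Sequences were named by rule: in each role the 2 with the highest mean, the 2 with the smallest p in either phosphorus response, and the 2 with the largest called tissue difference in each direction. Chosen after their values were seen were JAZ6 LAGI01_15633, the JAZ3 sequences LAGI01_33704, LAGI01_24430, LAGI01_45419, LAGI01_19869, LAGI01_43015, LAGI01_33259 and LAGI01_36647, LOX2 LAGI01_64003 and LAGI01_95265, LOX1 LAGI01_72367 and the named genes outside the 202. OPR1 LAGI01_49675 and OPR2 LAGI01_50671 were likewise named after their calls with barcoded libraries only were seen. Members and lists were chosen with earlier results of these data known.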

Additional observations from a re-analysis of the deposited data

How the results depend on the processing

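For the root response, 0 of the 202 sequences were called by limma except with the replicate block within each tissue and rescaled libraries (1, AOS LAGI01_32261) and with that block without deficient leaf replicate 3 (3, adding JAZ3 LAGI01_33259 at -1.38 and LAGI01_63462 at -1.63), both fits added after seeing the data. In the first of these fits 0.699% of all tested sequences were called higher in roots and 0.37% lower. In the second these shares were 0.794% and 0.48%. For the leaf response the count was 0 in the main fit, 7 with a replicate block over all libraries, 8 with the block within each tissue, 0 with that block without deficient leaf replicate 3, 1 with that block and rescaled libraries, 2 with median-of-ratios scaling, 1 with no intensity trend and 43 with barcoded libraries only. All tested sequences called lower in leaves were 0.0172% in the main fit, 0.158% with the block over all libraries, 0.113% with block and scaling, 0.0459% with scaling and 0.039% with no trend. With the block within each tissue and without deficient leaf replicate 3, this share was 0%. For the difference of the responses the count was 0, and 2 with barcoded libraries only (OPR1 LAGI01_49675 and OPR2 LAGI01_50671). Both were called higher, as were 1.51% of all tested sequences in that fit, a larger share than 2 of the 202. Summing by description left 32 descriptions, of which 28 were called between tissues with sufficient and 29 with deficient phosphorus. Of all 26949 sums tested, 10702 and 9940 were called. Leaving out 1 library gave 0 to 0 calls for the root response and for the difference, 0 to 16 for the leaf response, 155 to 178 between tissues with sufficient and 154 to 188 with deficient phosphorus. The leaf calls came without sufficient leaf replicate 1 (16), deficient leaf replicate 1 (7) and deficient root replicate 1 (4). All were lower, against 1.5%, 0.54% and 0.0712% of all tested in these fits. No named sequence with a call changed direction under any alternative. The replicate block within each tissue changed no call in the root response or the difference, and between tissues it gave 182 calls against 176 with sufficient and 189 against 178 with deficient phosphorus. The cause of these changes was not tested. The values hold no depth, so sequences near 0.1 RPKM, the lowest value above 0, cannot be told from absent ones.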
